A study of Homo sapiens with 2 samples.

Results

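The genes examined here are 9 that make, carry, trim or control the peptide cargo of MHC class I molecules (B2M, TAP1, TAP2, TAPBP, PSMB8, PSMB9, ERAP1, ERAP2 and NLRC5) together with CD274, which encodes the checkpoint ligand PD-L1. They were chosen by name, and all 10 had a probe set annotated to them alone, out of 22465 genes with such a probe set. They were measured in MDA-MB-231, a long-established human line from a triple-negative breast tumour, mesenchymal in character. The samples were 1 array of cells stably carrying a pLKO.1 vector with a short hairpin RNA against SREBP1 (the lipogenic transcription factor encoded by SREBF1), and 1 array of control cells stably carrying the pLKO.1 vector. The title of the control array ends in shNC and that of the other in shSREBP1, so the control vector need not have been empty. Both derivatives were grown in the same high-glucose medium with 10% serum and antibiotics, and no interferon treatment is named in the labels. The labels do not say whether each derivative was 1 clone or a pool, which hairpin sequence was used, or how many cultures were grown.

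Nucleated cells show samples of their own proteins at the surface on MHC class I molecules. The immunoproteasome cuts proteins into peptides, the TAP transporter moves the peptides into the endoplasmic reticulum, tapasin helps load them onto a heavy chain paired with beta-2-microglobulin, and aminopeptidases trim them to fit. Interferon-gamma induces most of these genes, and CD274 with them, through IRF1 and, for the class I genes, NLRC5. PD-L1 binds PD-1 on T cells and restrains them, and MDA-MB-231 is widely used as a PD-L1 positive line.

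The interferon-response letters found at most of these genes are shown first, because they occur at presentation genes and at CD274 alike. RefSeq promoter windows (GRCh38.p14, 250 bases before to 50 after a transcription start) were matched by symbol for 9 of the 10 genes, 13 windows in all, and NLRC5 had no entry. The letters GAAANNGAAA, the core of an interferon-stimulated response element, were searched on both strands, where the reverse reads TTTCNNTTTC. They occurred in 8 of the 13 windows, against 3.57% of all 35116 windows of the same length, and these 8 belong to 8 of the 9 genes, PSMB9 being the exception. Each stretch below is 30 bases, written 5′ to 3′ on the gene's strand with the matched letters in capitals.
PSMB8, chr6:32844030-32844059, minus strand: tctgtggcTTTCGCTTTCacttcctcctcc
TAP1, chr6:32853817-32853846, minus strand: gcggccgcTTTCGATTTCGCTTTCccctaa
TAP2, chr6:32838776-32838805, minus strand: ggggaagcGAAAGCGAAAgctgcccgagcc
TAPBP, chr6:33314077-33314106, minus strand: ctttggagGAAAGTGAAAGTGAAAggagga
ERAP1, chr5:96807922-96807951, minus strand: ggctccacTTTCACTTTCggtcctggggga
ERAP2, chr5:96876462-96876491, plus strand: ttagaacaGAAAGTGAAAgcaaaagtaaat
B2M, chr15:44711365-44711394, plus strand: gactctaaGAAAAGGAAACTGAAAacggga
CD274, chr9:5450326-5450355, plus strand: ctgacatgTTTCACTTTCTGTTTCatttct
Overlapping double matches were found in TAP1, TAPBP, B2M and CD274, and single ones in the other 4 genes. The match began 208 bases upstream of the start of CD274, 144 upstream in B2M, 134 in TAP1, 58 in TAP2, 30 in ERAP2, 20 in TAPBP and 4 in PSMB8, and just downstream of the start in ERAP1. TAP1, PSMB8, ERAP1 and ERAP2 have 2 windows each, and only 1 of the 2 held it. A match describes letters and not a bound site.

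TAP1 and PSMB9 are transcribed away from each other, with RefSeq starts 488 bases apart, so that the TAP1 match lies between both genes. The bases upstream of both starts and of CD274 are given for that reason, again with the interferon-response letters in capitals.
TAP1, chr6:32853705-32853954, minus strand: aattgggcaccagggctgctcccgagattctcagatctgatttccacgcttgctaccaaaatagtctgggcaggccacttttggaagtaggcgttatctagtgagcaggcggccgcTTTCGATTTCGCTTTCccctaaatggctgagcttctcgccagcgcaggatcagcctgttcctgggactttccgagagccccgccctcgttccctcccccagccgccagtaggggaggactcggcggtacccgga
PSMB9, chr6:32853942-32854191, plus strand: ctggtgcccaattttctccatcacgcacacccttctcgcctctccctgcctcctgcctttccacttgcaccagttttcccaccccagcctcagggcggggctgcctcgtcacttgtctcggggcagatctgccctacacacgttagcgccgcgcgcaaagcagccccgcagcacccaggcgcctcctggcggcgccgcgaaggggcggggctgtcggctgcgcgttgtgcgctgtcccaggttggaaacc
CD274, chr9:5450292-5450541, plus strand: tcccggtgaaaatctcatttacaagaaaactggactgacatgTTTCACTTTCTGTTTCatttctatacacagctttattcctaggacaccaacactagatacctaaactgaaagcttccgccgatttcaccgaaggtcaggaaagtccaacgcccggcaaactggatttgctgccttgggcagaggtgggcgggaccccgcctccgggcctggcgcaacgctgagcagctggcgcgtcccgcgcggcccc
The windows of TAP1 and PSMB9 share 13 bases. The palindromic letters TTCNNNGAA of a gamma-activated site were present in 3 of the 13 windows (1 each of TAP1, PSMB8 and CD274, that of TAP1 not being the window printed) and in 7.66% of all windows, and overlapped none of the 12 interferon-response matches. The letters TCACNCCAC of a sterol regulatory element, the type of site that SREBP proteins bind, were in none of the 13 windows and in 1.13% of all windows. The E-box CACGTG was in none of the 13 and in 7.26% of all. The CCAAT box was in 4 of the 13 windows, of B2M, TAP1, PSMB9 and ERAP1, and in 34.6% of all windows, and the TAP1 and PSMB9 matches are 1 box in the bases both windows share. Absence says only that these letters are not in these windows.

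Each group had a single array (1 per group), which leaves replicate error unmeasured and allows no test. Differences are therefore given as the array labelled knockdown minus the control array, in log2 units. For the 10 genes they stand beside the SD of the differences of the 500 genes nearest in mean signal. SREBF1, the target of the hairpin, read 5.29 on the array labelled knockdown and 5.13 on the control array, a difference of 0.15, and no loss of its RNA was measured. All directions below therefore refer to the label of the array. SREBF2 read 6.08 on the array labelled knockdown and 5.98 on the control array. VIM, CD44, KRT18 and KRT8, markers that the line carries, read between 8.49 and 9.74 on the array labelled knockdown and between 8.61 and 9.46 on the control array. Their median difference was 0.17. Of 7 luminal and epithelial markers known as low in the line, ESR1 and PGR lay under an expression floor of 3.26 log2 units on both arrays, ERBB2 shared its probe set with another gene, and 4 passed the floor with a median difference of -0.056. EPCAM read 5.14 on both arrays, and GATA3 read 4.84 on the array labelled knockdown and 4.95 on the control array. Neither was absent by this measure. FOXA1 read 3.56 on the array labelled knockdown and 3.55 on the control array, above the floor but close to it. CDH1 read 3.16 on the array labelled knockdown, under the floor, and 3.32 on the control array. That floor was set from 394 genes with olfactory receptor symbols, which the line should not express, as the 95th percentile of their averages, and 15474 genes passed it by the higher of their values.

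None of the 10 genes differed by 2-fold, by 1.5-fold or even by 0.32 log2 units between the arrays. All 10 lay above the floor on both arrays, 5 were higher and 5 lower on the array labelled knockdown (4 and 6 with the median or a loess curve of all genes subtracted), and the median difference was -0.018 log2 units, against 0.013 over all genes above the floor. The share of all genes at least 1.5-fold apart was 1.14%, so that 0 of 10 lies near that background. It was 0.136% at 2-fold and 8.12% at 0.32 log2 units. Differences ran from -0.28 for ERAP2 to 0.21 for TAP2, and 9 of the 10 were smaller than 1 SD of genes of their signal. This count used the probe set of highest mean signal, and for TAP2 it depended on that choice. A larger absolute difference than that of ERAP2 was seen in 11.8% of all genes above the floor. In bulk RNA, fewer cells with a transcript and less of it per cell cannot be told apart.

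**Figure D1:**
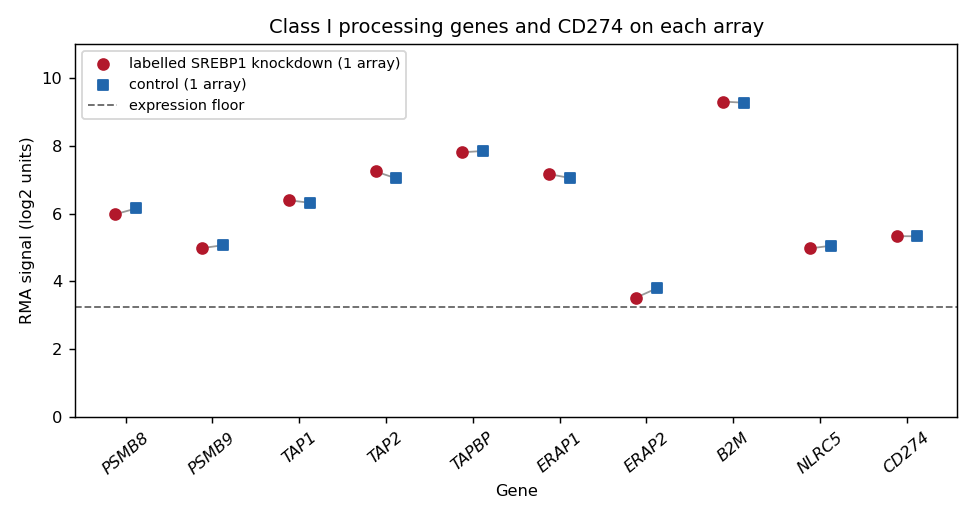
RMA signal in log2 units (vertical axis) of the 10 genes (horizontal axis) on the array labelled SREBP1 knockdown (red circle, left) and the control array (blue square, right), with 1 array each and no error bars. Grey lines join the values of a gene and the dashed line is the floor of 3.26. The pairs lie almost level, ERAP2 is nearest the floor, and levels of different genes are not comparable because their probes differ.

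CD274, the gene of PD-L1, had the same signal on both arrays to 2 decimals. It read 5.33 log2 units on the array labelled knockdown and 5.33 on the control array, a difference of 0.0037, with an SD of 0.20 among genes of its signal. Both values lay 2.1 log2 units above the floor. Of the genes of like signal, 90.2% differed by at least as much.

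The immunoproteasome subunits differed by less than the SD of genes of like signal, or not at all. PSMB8, the catalytic subunit that replaces PSMB5 in immune-type proteasomes, read 5.98 log2 units on the array labelled knockdown and 6.15 on the control array, a difference of -0.17 or 1.13-fold lower. PSMB9, which replaces PSMB6, read 4.98 on the array labelled knockdown and 5.07 on the control array, a difference of -0.085. Both differences were below the SD of 0.19 of genes of like signal. The third replacing subunit, PSMB10, read 5.03 on both arrays.

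The constitutive counterparts had other values. PSMB5 read 7.28 on the array labelled knockdown and 6.88 on the control array, or 1.31-fold higher. PSMB7, which PSMB10 replaces, read 9.22 on the array labelled knockdown and 8.92 on the control array, or 1.23-fold higher. PSMB6 read 8.35 on the array labelled knockdown and 8.41 on the control array. The replaced subunits PSMB5 and PSMB7 were thus higher by 0.39 and 0.30 log2 units, while PSMB6 and all 3 immune-type subunits lay between -0.17 and 0. No SD of genes of like signal was computed for PSMB10 or the constitutive subunits, and the contrast was not tested. PSMB5 passed 0.32 log2 units, as did 3.77% of all genes in that direction. Exactly equal values, as for PSMB10, occurred in 6.49%. The genes PSME1 and PSME2 of the PA28 cap, which opens the proteasome gate, differed by -0.060 and -0.034. POMP, a proteasome assembly chaperone, was the lowest of that list at -0.21.

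In their probe sets of highest mean signal, the transporter subunits also differed by less than the SD of genes of like signal. TAP2 read 7.24 log2 units on the array labelled knockdown and 7.03 on the control array, a difference of 0.21 or 1.15-fold higher, the highest of the 10 genes. TAP1, its partner in the transporter, read 6.39 on the array labelled knockdown and 6.32 on the control array, a difference of 0.073. Among genes of like signal the SD was 0.225 for TAP2 and 0.20 for TAP1, so neither stood outside it in these probe sets. The reference-chromosome probe set of TAP2 gave 0.231 and its highest probe set 0.24, both just past 0.225. TAPBP, which encodes tapasin, the bridge between the transporter and class I molecules, read 7.81 on the array labelled knockdown and 7.85 on the control array, a difference of -0.039.

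The trimming aminopeptidases had differences of opposite sign, 1 of them within the SD of its signal level. ERAP1 read 7.16 log2 units on the array labelled knockdown and 7.05 on the control array, a difference of 0.11 within an SD of 0.22. ERAP2 read 3.52 on the array labelled knockdown and 3.80 on the control array, a difference of -0.28 or 1.21-fold lower. By the probe sets of highest mean signal, ERAP2 was the 1 gene of the 10 beyond the SD of its signal level, 0.17. At that level, 8.8% of genes differed by at least as much. Its values lay above the floor by only 0.26 log2 units on the array labelled knockdown and 0.54 on the control array, where signal is close to that of genes the line should not express.

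B2M and NLRC5 differed little. B2M, the invariant light chain of all class I molecules, read 9.30 log2 units on the array labelled knockdown and 9.27 on the control array, a difference of 0.033. NLRC5, the transactivator of class I genes, read 4.97 on the array labelled knockdown and 5.05 on the control array, a difference of -0.078. The SD at these signal levels was 0.18 for B2M and 0.19 for NLRC5.

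Of the 10 genes, 5 lie in the MHC on chromosome 6 and were read by several probe sets, which gave nearly the same difference each time. The array holds clusters for the reference chromosome and for alternate MHC haplotypes, so TAP1, TAP2, PSMB8 and PSMB9 had 8 single-gene probe sets each and TAPBP had 5, 37 in all. The sign was the same in every probe set of each of these genes. The range was 0.070 to 0.073 for TAP1, 0.20 to 0.24 for TAP2, -0.043 to -0.015 for TAPBP, -0.18 to -0.17 for PSMB8 and -0.13 to -0.085 for PSMB9. Identical values recurred among the clusters, as shared probes would give, so they are not independent measurements. For PSMB9, 2 clusters tied for the highest mean, and the second gave -0.12 in place of -0.085. The other 5 genes had 1 probe set each.

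**Figure D2:**
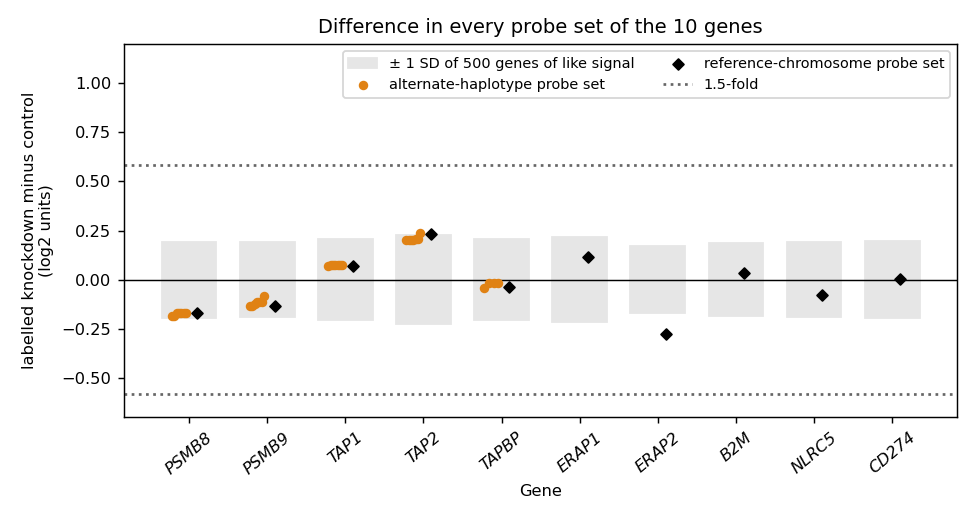
Difference of the array labelled knockdown minus the control array in log2 units (vertical axis) in each single-gene probe set of the 10 genes (horizontal axis): orange circles for alternate haplotypes, black diamonds for the reference chromosome. Grey boxes span 1 SD on either side of 0 of the differences of 500 genes of like signal, and dotted lines mark 1.5-fold. The probe sets of a gene cluster tightly. ERAP2 lies outside its box, and so do the TAP2 probe sets at 0.231 and 0.24, just past an SD of 0.225.

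Along the chromosome, neighbouring genes of the MHC did not share a direction. In the RefSeq order of protein-coding genes, TAP2, PSMB8, TAP1 and PSMB9 lie side by side, and their differences were 0.21, -0.17, 0.073 and -0.085. The next genes after PSMB9, HLA-DMB and HLA-DMA, named after their values were seen, differed by -0.29 and -0.48. Over the 36 protein-coding genes within 3 places of any of the 10, 23 were above the floor, 13 were higher, 9 lower and 1 equal, and none was 1.5-fold apart. Near CD274, 4 of 6 neighbours were above the floor, from -0.29 to 0.17. The upper end was its direct neighbour PDCD1LG2, which encodes the other PD-1 ligand, PD-L2, and read 4.997 on the array labelled knockdown and 4.83 on the control array.

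**Figure D3:**
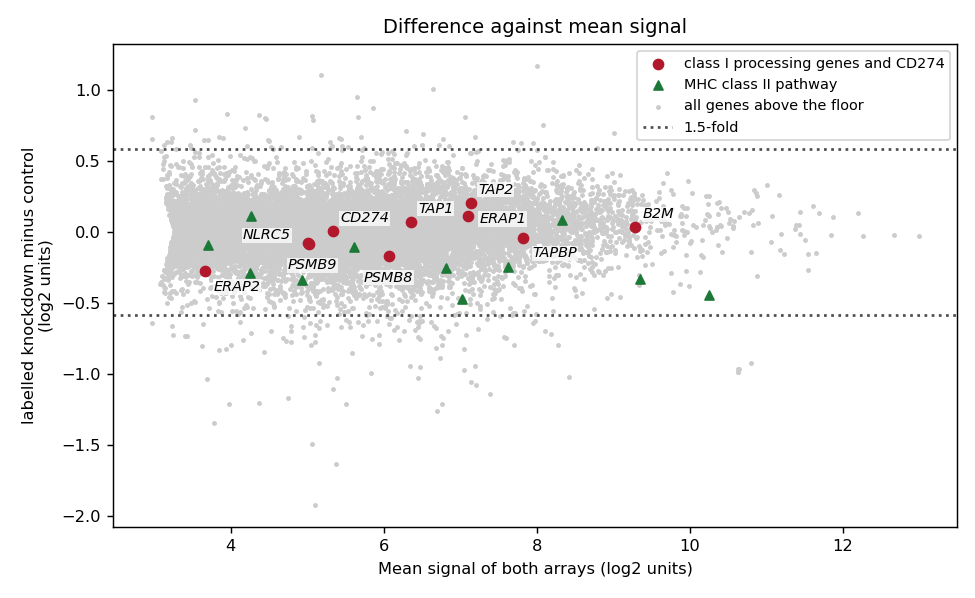
Difference of the array labelled knockdown minus the control array (vertical axis, log2 units) against the mean signal of both arrays (horizontal axis, log2 units) for the 10 genes (red), 11 genes of the MHC class II pathway (green triangles) and all 15474 genes above the floor (grey). Dotted lines mark 1.5-fold. The red points lie in the body of the grey cloud, between -0.28 and 0.21.

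Genes around the class I pathway were described by 11 lists with 102 places, of which 85 passed the floor and 10 did not, 3 shared their probe set with another gene and 4 were not analysed here. None of the 85 was 1.5-fold apart, against 1.14% of all genes. The class I heavy chains, which hold the peptide, were higher in 5 of 5 measured genes, and in 4 of 5 with the loess curve subtracted, with a median of 0.085. Over all genes above the floor 52.3% were higher and 41.2% lower, and none of the 5 differed by more than 0.12. HLA-B had the highest difference at 0.12, reading 8.08 on the array labelled knockdown and 7.96 on the control array. HLA-C had the lowest at 0.019, and its 7 probe sets reached from -0.0071 to 0.048. These chains are closely similar in sequence, so their probes may read each other.

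Partners of loading had a median near 0. Among loading complex partners and folding factors of the endoplasmic reticulum, 6 of 7 were higher and 1 equal, and 3 of 7 were higher with the loess curve subtracted. The median was 0.049, or -0.0069 with the curve subtracted, and differences ran from TAPBPL, the second peptide editor, at 0 to SEC61A1, a channel subunit, at 0.19. Among other antigen-trimming peptidases 3 of 5 were higher, with a median of 0.15. BLMH (bleomycin hydrolase) had the highest difference at 0.34, and NPEPPS, a cytosolic aminopeptidase, the lowest at -0.092.

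The interferon-gamma list, which holds inducers of the 10 genes, centred on 0. Of 10 genes above the floor 3 were higher, 4 lower and 3 exactly equal, and the median was 0. IRF1, the factor that binds interferon-response elements, read 4.89 on both arrays. PTPN2, a phosphatase that restrains the pathway, was highest at 0.13, and the receptor chain IFNGR1 lowest at -0.15. Of the receptor kinases in the list, JAK2 was under the floor on both arrays at 2.92. JAK1 read 8.18 on the array labelled knockdown and 8.08 on the control array. Exactly equal values occurred in 6.49% of genes above the floor.

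The list of the promoter complex shared by class I and class II genes also holds CIITA. With CIITA counted, it was split evenly, 4 genes higher and 4 lower of 8, around a median of 0.015. NFYA, a CCAAT-binding subunit, had the highest difference at 0.35, reading 7.03 on the array labelled knockdown and 6.68 on the control array. CIITA, the class II counterpart of NLRC5, had the lowest at -0.36, reading 5.62 on the array labelled knockdown and 5.98 on the control array. NLRC5 thus differed by -0.078 and CIITA by -0.36.

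The class II pathway, which presents peptides to helper T cells, had the lowest median of the 11 lists, -0.25 log2 units, where the 10 class I genes and CD274 had -0.018. Of 11 genes above the floor 9 were lower and 2 higher, against 41.2% lower and 52.3% higher of all genes. The gap between the 2 medians was not tested, and the lists were written with earlier results of these data known. At 0.32 log2 units or more 4 were lower and 0 higher, where 4.34% of all genes were lower and 3.77% higher by that much. HLA-DMA, a chain of the class II peptide editor, was lowest, reading 6.78 on the array labelled knockdown and 7.26 on the control array, or 1.39-fold lower, with -0.48 to -0.36 over its 8 probe sets. The other 3 were named after their values were seen. They were HLA-DRB1 at -0.45, HLA-DPB1 at -0.34 and HLA-DRA at -0.33. Probe sets of HLA-DPB1 reached from -0.34 to 0. HLA-DOA, a chain of an inhibitor of that editor, was highest at 0.11. HLA-DRB1 has close paralogues whose transcripts its probes may read.

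Leukocytes and professional antigen-presenting cells also carry class II genes, so their markers stand beside this list. Of 18 markers, 9 were above the floor, 8 below it and 1 not analysed. The summed linear signal of the 9 was 608 on the array labelled knockdown and 545 on the control array. CD68, a lysosomal protein that many cells carry, made up 462 of it on the array labelled knockdown and 399.7 on the control array, and the other 8 summed to 145 on each. PTPRC, the pan-leukocyte marker, lay under the floor at 2.04 on both arrays, as did CD3D at 2.82 and the B-cell marker MS4A1 at 2.09 on the array labelled knockdown and 2.19 on the control array. Among T-cell and B-cell markers above the floor, CD3E read 3.66 on the array labelled knockdown and 3.53 on the control array, CD8A 4.50 on the array labelled knockdown and 4.54 on the control array, and CD79A 4.21 on the array labelled knockdown and 4.06 on the control array. Of myeloid markers, TYROBP read 4.98 on the array labelled knockdown and 4.87 on the control array, and CSF1R differed by -0.24. The list's median was 0.13, from CD14 at -0.36 to CD68 at 0.21, and became -0.040 with the floor 1 log2 unit higher. The part of these markers in the class II values was not tested. The sums here and below add genes whose probes differ, and signal near the floor counts in them. Fibroblast markers had 4 of 6 above the floor, with a median of -0.012 and a summed linear signal of 82.3 on the array labelled knockdown and 86.2 on the control array. Endothelial markers had 3 of 5 above it, with a median of 0.038 and sums of 36.3 on the array labelled knockdown and 34.9 on the control array, and PECAM1 was under the floor on both.

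Of 11 class I-like molecules and ligands of the natural killer receptor NKG2D, 8 were higher and 3 lower, against 52.3% higher and 41.2% lower of all genes. The median of this list was 0.25, or 0.21 with probe sets averaged. By 0.32 log2 units or more 4 were higher, against 3.77% of all genes, and 1 lower as measured, against 4.34%. RAET1L, an NKG2D ligand, had the highest difference at 0.50, reading 5.95 on the array labelled knockdown and 5.45 on the control array, or 1.42-fold higher. Named after their values were seen, the other 3 higher genes were the NKG2D ligands ULBP2 at 0.41, MICB at 0.36 and ULBP3 at 0.35. The 8 probe sets of MICB reached from 0.25 to 0.36, so not all of them passed 0.32. MR1, which presents vitamin metabolites, was the lowest. Its value of 3.14 on the array labelled knockdown lay under the floor, against 3.55 on the control array, which makes its difference a bound of at least 0.29 log2 units lower. The ligands of the RAET1 and ULBP family are close paralogues whose probes may read each other.

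Other checkpoint ligands and PD-L1 regulators had members on both sides of 0 and further from it than CD274. The ligand list had 10 of 16 genes above the floor, 6 higher and 4 lower, with a median of 0.037 that became -0.0059 with the loess curve subtracted. PVR, a ligand of TIGIT, was highest at 0.24, and CD47, the macrophage checkpoint ligand, lowest at -0.23. The T-cell costimulation ligands CD80 and CD86 and the enzyme IDO1 were under the floor on both arrays. Regulators of PD-L1 protein had 6 of 11 higher and a median of 0.082, from CDK5, a kinase, at -0.15 to HIP1R, an endocytic adaptor, at 0.16. The arrays measure RNA, so PD-L1 protein at the surface was not observed.

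**Figure D4:**
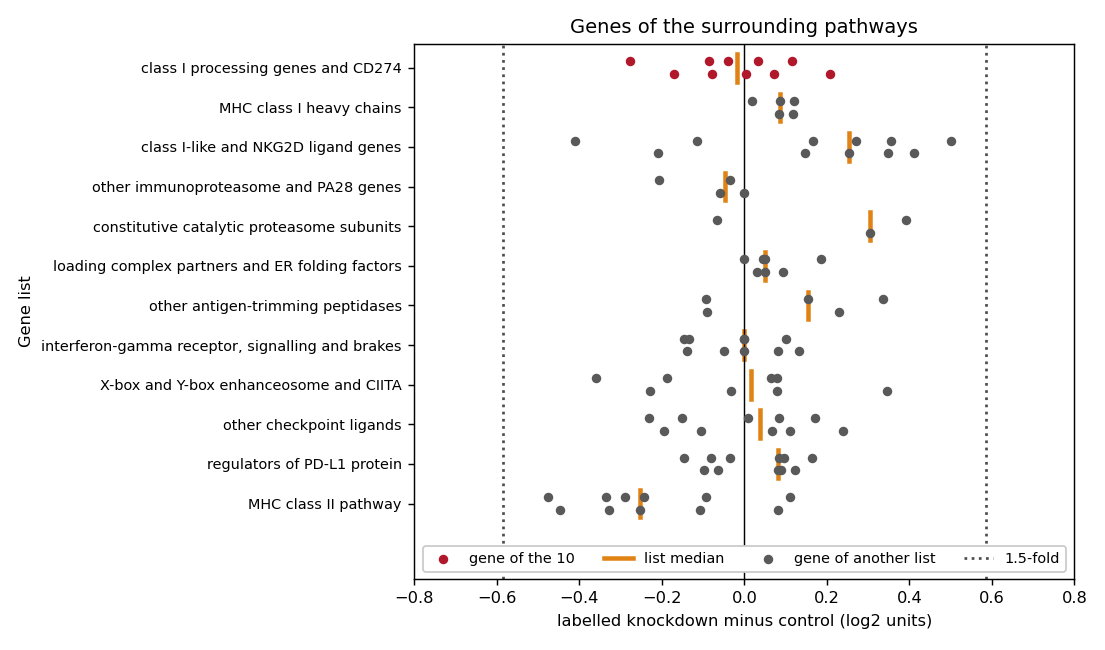
Difference of the array labelled knockdown minus the control array in log2 units (horizontal axis) for each gene above the floor in the 12 rows of genes (vertical axis): the 10 class I processing genes and CD274 in red on top, the 11 other lists in grey. Vertical offsets within a row only separate points, orange bars are medians and dotted lines mark 1.5-fold. The class II list lies furthest left, with a median of -0.25, and no gene reaches 1.5-fold.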

How the data were processed

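The authors deposited 1 log2 signal for each probe set on each array. Per the submitters' processing notes, these came from RMA as run in Affymetrix Expression Console. The software versions, the annotation and the build were not given in the sources used here. Biotinylated cDNA was made from 250 ng of total RNA, per the labels' protocols. RMA values are relative signals and commonly compress fold changes. Groups came from the genotype label, 1 array each, and this number limits the precision.

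Of 70523 probe sets, 23781 named 1 gene, 1543 several and 45199 none here, and only the first were used. The probe set with the highest mean of both arrays stood for a gene. Symbols were updated through RefSeq (GRCh38.p14, 20299 of 22465 genes matched). The difference was the array labelled knockdown minus control. A gene was kept when its higher value passed the floor. Counts were taken at 0.32 log2 units, 1.5-fold and 2-fold.

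The genes, lists and motifs were chosen with earlier results of these data known. The rule for named genes took all 10, SREBF1, SREBF2, a fixed panel of proteasome counterparts and regulators, and the highest and lowest gene of each list when none passed 1.5-fold. One gene of that panel was not analysed here.

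As alternatives, the median or a loess curve (fraction 0.3) was subtracted from the differences. Others averaged probe sets, removed or raised the floor, set it on the mean, set values under it to it, used list means or protein-coding genes only. The use of other probe sets for MHC genes, and a floor from complete olfactory receptor symbols only, were added after seeing the data. Simulated data with known differences were used to test the code. It ran in Python 3.11.15 (matplotlib 3.10.9, statsmodels 0.14.6, pandas 2.3.3, numpy 2.4.6).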

Additional observations from a re-analysis of the deposited data

How the results depend on the processing

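No difference of the 10 genes moved by over 0.1 log2 units in any of 46 recomputations, and none reached 0.32 log2 units. Many of the 46 could not move a value. All 10 genes lay above the floor on both arrays, so setting values to the floor changed none. Averaging probe sets could not change the 5 genes with 1 probe set. Subtracting the median shifted every gene by the same 0.013. The sign turned in 2 of the 46, for differences close to 0: B2M was -0.033 after the loess curve was subtracted, and CD274 was -0.0089 after the median difference of all genes was subtracted. The median of the 10 genes lay between -0.058 with the loess curve subtracted and 0.0037 with the floor 1 log2 unit higher, where ERAP2 dropped out. Of 135 recomputed medians or means of the 10 genes and the lists, 1 moved by over 0.1, that of leukocyte markers with the higher floor (-0.040). That one included, 6 turned sign. Among them were the 10 genes with the higher floor, and loading partners (-0.0069) and checkpoint ligands (-0.0059) with the curve subtracted. The rest were the means of checkpoint ligands (-0.00024) and of the class I and class II promoter complex with CIITA (-0.030). The class II median lay between -0.29 and -0.24 in all of its settings, and the mean of that list was -0.22. The share of genes beyond 1.5-fold was 1.05% among protein-coding genes. With the floor from the 364 complete olfactory receptor symbols only, a choice made after seeing the data, the floor was 3.21, 15702 genes passed it, 1.13% were beyond 1.5-fold, all 10 genes were still above it on both arrays, and the class II median was -0.25. No paired analysis was possible because each group had 1 array, and for the same reason no array could be left out.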
